A study of Homo sapiens with 20 samples.

Results

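The BCL2 family controls the mitochondrial pathway of apoptosis, and 10 of its genes were followed across 12 RNA-seq libraries of human embryonic stem cells. They are the prosurvival genes BCL2 and MCL1, the effectors BAX and BAK1, and the BH3-only genes BCL2L11, BBC3, PMAIP1, BID, BAD and BIK. The 10 were chosen by gene symbol and are 10 of the 54435 features in the count tables. All 10 passed the filter on low counts that left 16792 features for testing.

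The cells are H1, an established human embryonic stem cell line. KO1 and KO2 are H1 lines whose labels give a knockout of the long noncoding RNA DIGIT, encoded beside the homeobox gene GSC, and WT is H1 labelled as wild type. All 3 lines were taken at day 0, growing undifferentiated in mTeSR1 without feeder cells, and at day 4 in RPMI medium supplemented with B27 and Activin A (50 ng/ml), a TGF-beta family ligand used to obtain endoderm. Each of the 6 groups has 2 libraries of poly(A) RNA. DIGIT itself was not analysed here, so the knockouts rest on the labels. Each knockout is 1 line, and an effect of DIGIT and any other difference between a line and WT cannot be told apart. Whether the replicates came from separate cultures is not stated, so p-values measure only the spread between these libraries, which may be technical.

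Prosurvival proteins of this family bind and restrain BAX and BAK1, which otherwise open the outer mitochondrial membrane and release cytochrome c, the cofactor with which APAF1 activates caspases. BH3-only proteins occupy the groove of the prosurvival proteins, and some of them also activate BAX and BAK1 directly. Human embryonic stem cells are known to enter apoptosis readily after DNA damage.

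Libraries held 9942016 to 21394547 counts, of which the 10 members took 0.0722% to 0.0946%. A count of 3 corresponded to 0.133 to 0.294 CPM, counts scaled to library size, the unit in which levels are given here. CPM is not divided by transcript length, so levels are compared between samples and not between genes. At day 4 the summed level of 6 definitive endoderm markers was 4871 to 4949 CPM in KO1, 825 to 1045 CPM in KO2 and 4439 to 4833 CPM in WT, and at day 0 it was 5.44 to 12.4 CPM over all lines. None of the 6 was at 0 in a group. The summed level of 6 pluripotency markers at day 4 was 2826 to 2827 CPM in KO1, 3301 to 3339 CPM in KO2 and 2801 to 2808 CPM in WT. The summed levels of the other marker lists at day 4 were, for 4 mesendoderm genes, 703 to 717 CPM in KO1, 232 to 253 CPM in KO2 and 472 to 626 CPM in WT, and for 6 mesoderm genes 172 to 177, 122 to 136 and 144 to 150 CPM in the same order. They were 31.9 to 33.4, 32.9 to 33.7 and 33.6 to 36.1 CPM for 5 neuroectoderm genes. For 4 fibroblast or feeder-type genes they were 481 to 513, 476 to 483 and 413 to 442 CPM. At day 0, over all lines, the mesendoderm sum was 0.989 to 3.03 CPM and the mesoderm sum 213 to 363 CPM. The neuroectoderm sum was then 38.6 to 52.6 CPM and the fibroblast or feeder-type sum 785 to 928 CPM. All but the mesendoderm sum among these lists were thus higher before differentiation than at day 4. KO1 day 0 replicate 2 stood apart from its partner, with a chi-square of 22 per feature where the other 5 pairs gave 1.91 to 3.94, and results that rest on it are given with and without it. In such bulk RNA, fewer cells of a type and less RNA per cell cannot be told apart.

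Promoter stretches are shown for BCL2, BAX, BCL2L11 and BBC3, the 4 members whose mean difference between the knockout lines and WT at day 4 was called under every setting run. Each is the 250 bases before the RefSeq start on the gene's strand, 5′ to 3′, in GRCh38.p14. Capitals mark E-boxes (CACGTG, a site read by MYC and related factors) and the FOXO core (TGTTTAC on either strand), and these 2 of 5 motifs searched were picked for capitals after the matches were seen. The stretches are chr18:63319770-63320019 for BCL2 and chr19:47232668-47232917 for BBC3, both on the minus strand, and chr19:48954625-48954874 for BAX and chr2:111120664-111120913 for BCL2L11, both on the plus strand.
BCL2: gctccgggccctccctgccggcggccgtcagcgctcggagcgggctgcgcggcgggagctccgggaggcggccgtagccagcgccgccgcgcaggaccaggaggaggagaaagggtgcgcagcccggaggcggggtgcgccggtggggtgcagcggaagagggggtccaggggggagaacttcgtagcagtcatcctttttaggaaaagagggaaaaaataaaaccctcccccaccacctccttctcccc
BAX: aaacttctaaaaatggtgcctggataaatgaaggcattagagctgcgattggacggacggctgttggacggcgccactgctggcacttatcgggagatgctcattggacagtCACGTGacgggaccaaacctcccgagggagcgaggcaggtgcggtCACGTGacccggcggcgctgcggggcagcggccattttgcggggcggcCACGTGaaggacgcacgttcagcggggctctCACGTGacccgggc
BCL2L11: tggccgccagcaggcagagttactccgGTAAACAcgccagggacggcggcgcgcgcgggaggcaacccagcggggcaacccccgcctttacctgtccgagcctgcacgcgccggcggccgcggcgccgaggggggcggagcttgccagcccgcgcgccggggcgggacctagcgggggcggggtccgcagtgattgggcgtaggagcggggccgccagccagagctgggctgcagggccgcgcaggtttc
BBC3: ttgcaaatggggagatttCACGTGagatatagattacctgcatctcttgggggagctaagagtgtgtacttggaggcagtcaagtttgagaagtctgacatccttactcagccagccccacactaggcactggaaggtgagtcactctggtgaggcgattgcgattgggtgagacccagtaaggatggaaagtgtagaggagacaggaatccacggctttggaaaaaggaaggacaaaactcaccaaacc

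The BAX stretch held 4 E-boxes, at bases −138 to −133, −93 to −88, −45 to −40 and −14 to −9 counted from the start. An E-box was present in 6.34% of 35116 RefSeq promoter entries cut to the same length, and 5 entries, or 0.0142%, held at least 4. That cut-off of 4 was taken from the BAX stretch, and BAX is itself among those 5 entries. Binding of any factor to these sites was not tested. BBC3 had 1 E-box at −232 to −227, and BCL2L11 had a FOXO core at −223 to −217, a motif found in 2.98% of the entries. The other motifs searched on both strands were GGGCGG (the GC box, in 42.6% of entries), CCAAT (32%) and CAGAC (the SMAD box, 38%). GC boxes numbered 1 for BAX and 3 for BCL2L11, a CCAAT box was matched in BAX, BCL2L11 and BBC3, and a SMAD box in BBC3 at −158 to −154. The BCL2 stretch held none of the 5 motifs, which says only that these letters are not in that window. Of the 10 members, 8 had a promoter entry.

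At day 4 the knockout lines had more BCL2 and BCL2L11 and less BAX, BBC3 and BAD than WT, in KO1 and in KO2. MCL1 was higher in KO1, and BID was higher and BAK1 lower in KO2. A difference is called here when edgeR's quasi-likelihood test gave a Benjamini-Hochberg adjusted p below 0.05 over all 16792 features. In KO1 against WT, 3 members were higher, beside 10.5% of all features, and 3 were lower, beside 9.42%. In KO2 against WT, 3 were higher, beside 13.5%, and 4 were lower, beside 14.5%. For the mean of KO1 and KO2 against WT, 4 were higher, beside 11.3%, and 3 were lower, beside 12.6%. The 2 comparisons share the WT libraries. The median log2 difference of the 10 members for the mean was 0.10, against 0.01 over all features tested, and the called members lie on both sides of 0.

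**Figure D1:**
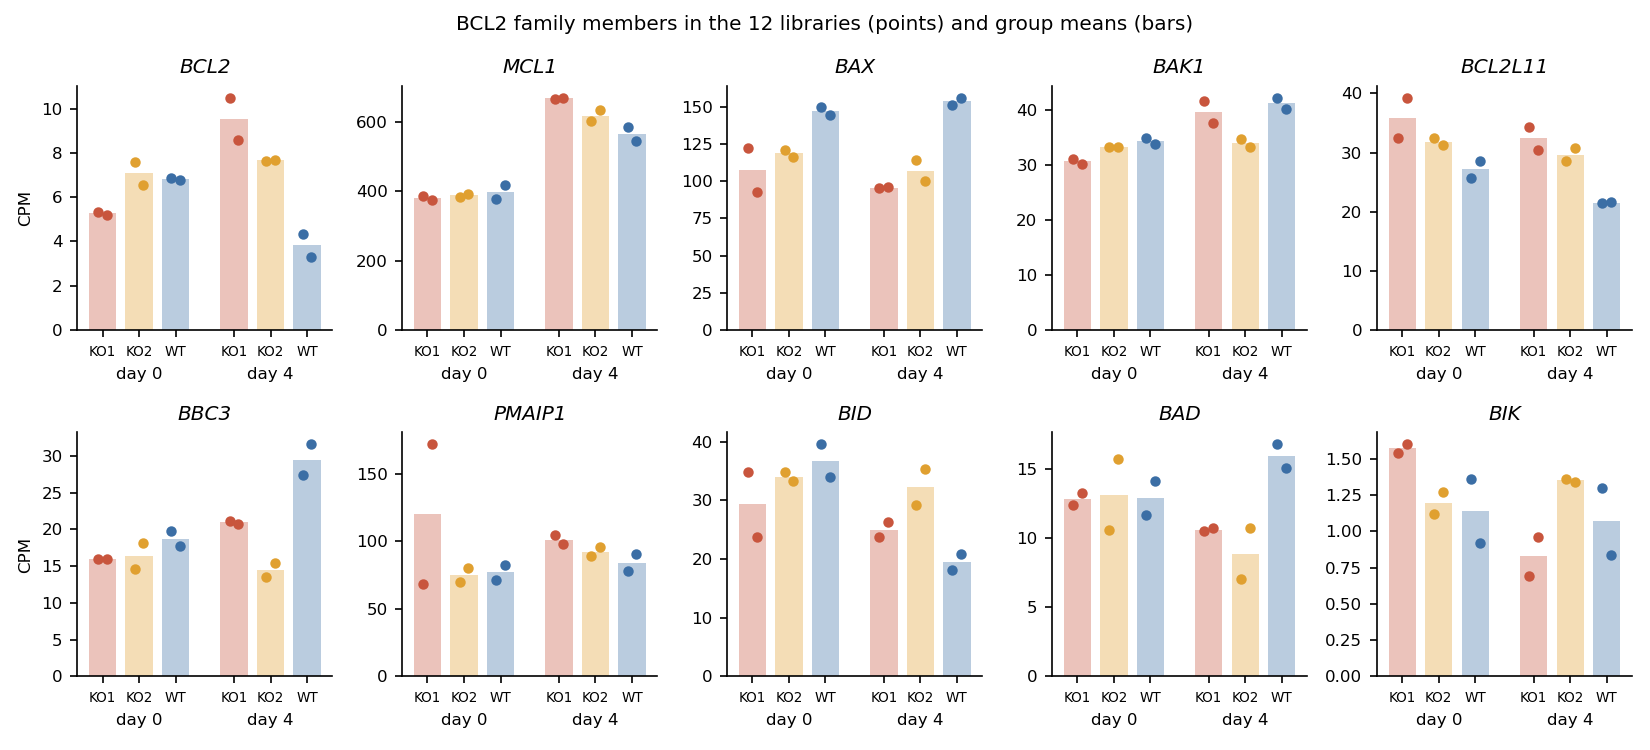
Level of each of the 10 members in CPM (counts scaled to library size, linear axes from 0), with 1 point per library and a bar for the mean of 2 libraries, for KO1, KO2 and WT at day 0 and day 4. BCL2 in WT at day 4 sits at 3.29 and 4.35 CPM, below every other library, and PMAIP1 in KO1 at day 0 spans 68.5 to 172 CPM.

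BCL2, the founding member and an inhibitor of apoptosis at the mitochondrial and endoplasmic reticulum membranes, was higher in both knockout lines at day 4. At day 4 it stood at 10.5 and 8.6 CPM in KO1, 7.62 and 7.7 in KO2, and 4.35 and 3.29 in WT. At day 0 it stood at 5.33 and 5.21 CPM in KO1, 7.59 and 6.56 in KO2, and 6.88 and 6.78 in WT. The WT libraries of day 4 were lower than every other library, and the KO1 libraries of day 4 were higher than every other. By group mean the order was KO1 day 4, KO2 day 4, KO2 day 0, WT day 0, KO1 day 0 and WT day 4, and only KO2 day 0 and WT day 0 overlapped among neighbours. The log2 difference from WT at day 4 was 1.33 in KO1 (SE 0.18, adjusted p = 0.000148), a 2.51-fold higher level, and 1.01 in KO2 (SE 0.19, adjusted p = 0.000872), a 2.02-fold higher level. These values rest on 51 to 125 counts per library. Both differences were called under all 18 settings run, with log2 values of 1.12 to 1.52 in KO1 and 0.80 to 1.20 in KO2.

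With time BCL2 went opposite ways in the lines. In KO1 the level was 9.56 ± 1.37 CPM at day 4 and 5.27 ± 0.0869 CPM at day 0, and in WT it was 3.82 ± 0.751 CPM at day 4 and 6.83 ± 0.0669 CPM at day 0 (SD, n = 2 each). The log2 change was 0.85 in KO1 (SE 0.17, adjusted p = 0.000433), 0.11 in KO2 (SE 0.18, adjusted p = 0.618) and −0.85 in WT (SE 0.19, adjusted p = 0.00175). BCL2 therefore rose in KO1 and fell in WT, and in KO2 the 95% interval of −0.27 to 0.49 includes 0. The change in KO1 exceeded that in WT by 1.70 on the log2 scale (SE 0.25, adjusted p = 0.000802), and that in KO2 exceeded it by 0.96 (SE 0.26, adjusted p = 0.023). Without KO1 day 0 replicate 2 the values for KO1 were 0.84 for the change and 1.67 for the difference from WT. The call for KO2 was lost under DESeq2 and without any 1 of WT day 0 replicates 1 and 2, KO2 day 0 replicate 2, WT day 4 replicate 2, or KO2 day 4 replicates 1 and 2, with an adjusted p of up to 0.113 and a difference no smaller than 0.75.

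MCL1, a short-lived prosurvival protein, rose in all 3 lines during differentiation. It stood at 666 and 670 CPM in KO1, 602 and 633 in KO2, and 584 and 546 in WT at day 4. At day 0 it was 385 and 375 CPM in KO1, 384 and 393 in KO2, and 377 and 418 in WT. Every library of day 4 exceeded every library of day 0. The log2 change was 0.81 in KO1, 0.67 in KO2 and 0.51 in WT (SE 0.07 each), with adjusted p values of 1.55e-07, 2.48e-06 and 3e-05 in that order, and it was called under all 18 settings in each line. At day 4 MCL1 was 0.24 higher in KO1 than in WT (adjusted p = 0.0263) and 0.13 in KO2 (adjusted p = 0.204, 95% interval −0.02 to 0.28). The KO1 call was lost without either library of KO2 day 0, WT day 4 or KO1 day 4, or without KO2 day 4 replicate 1, with an adjusted p of up to 0.226.

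BAX, an effector that moves from the cytosol to mitochondria to form pores, was lower in both knockout lines at day 4. It stood at 95.5 and 95.8 CPM in KO1, 114 and 100 in KO2, and 151 and 156 in WT. Its day 0 levels were 122 and 92.4 CPM in KO1, 121 and 116 in KO2, and 150 and 144 in WT. All 8 knockout libraries, of both days, lay below all 4 WT libraries. The log2 difference at day 4 was −0.69 in KO1 (SE 0.11, adjusted p = 0.000455) and −0.52 in KO2 (SE 0.11, adjusted p = 0.00211). Called under all 18 settings, it ranged from −0.72 to −0.68 in KO1 and from −0.64 to −0.43 in KO2. At day 0 the difference was −0.46 in KO1 (adjusted p = 0.13) and −0.32 in KO2 (adjusted p = 0.742). For their mean it was −0.39 (95% interval −0.58 to −0.19, unadjusted p = 0.000751, adjusted p = 0.121). The KO2 difference uses no KO1 library. It stayed at −0.32 with either KO1 library of day 0 left out, and it passed the threshold in those fits. Leaving out either KO1 library of day 0 brought the mean difference at day 0 past the threshold, at −0.49 with replicate 1 left out (adjusted p = 1.17e-05) and −0.30 with replicate 2 left out (adjusted p = 0.0162), as did DESeq2 and no filter on low counts.

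BAX was not called between the days in any line, with a log2 change of −0.16 in KO1 (95% interval −0.39 to 0.07), −0.14 in KO2 (−0.37 to 0.09) and 0.06 in WT (−0.16 to 0.29). In KO1 that change was −0.35 without day 0 replicate 2 (adjusted p = 0.000788), the replicate with the lower day 0 value, and 0.05 without day 0 replicate 1 (adjusted p = 0.605). In KO2 the change was called when only the libraries compared were fitted (adjusted p = 0.0402). Its order by group mean was WT day 4, WT day 0, KO2 day 0, KO2 day 4, KO1 day 0 and KO1 day 4. Among neighbours in that order, KO1 day 0 overlapped both KO2 day 4 and KO1 day 4.

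BAK1, the effector that resides in the outer mitochondrial membrane, moved less. At day 4 it stood at 41.5 and 37.6 CPM in KO1, 34.7 and 33.2 in KO2, and 42.2 and 40.2 in WT, and at day 0 all 6 libraries lay between 30.2 and 34.8 CPM. It rose with time by 0.37 on the log2 scale in KO1 (SE 0.09, adjusted p = 0.00269) and by 0.27 in WT (SE 0.09, adjusted p = 0.0261), and changed by 0.03 in KO2 (95% interval −0.17 to 0.23). At day 4 BAK1 was lower in KO2 than in WT, by a log2 difference of −0.28 (adjusted p = 0.0333), and in KO1 the difference was −0.06 (adjusted p = 0.698). The WT change lost its call under DESeq2, upper-quartile scaling, no filter, or without either WT day 0 library or WT day 4 replicate 1 (adjusted p up to 0.108). The KO2 difference lost its call under DESeq2, no filter, or without any 1 library of WT or KO2 at day 4 (adjusted p up to 0.2).

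**Figure D2:**
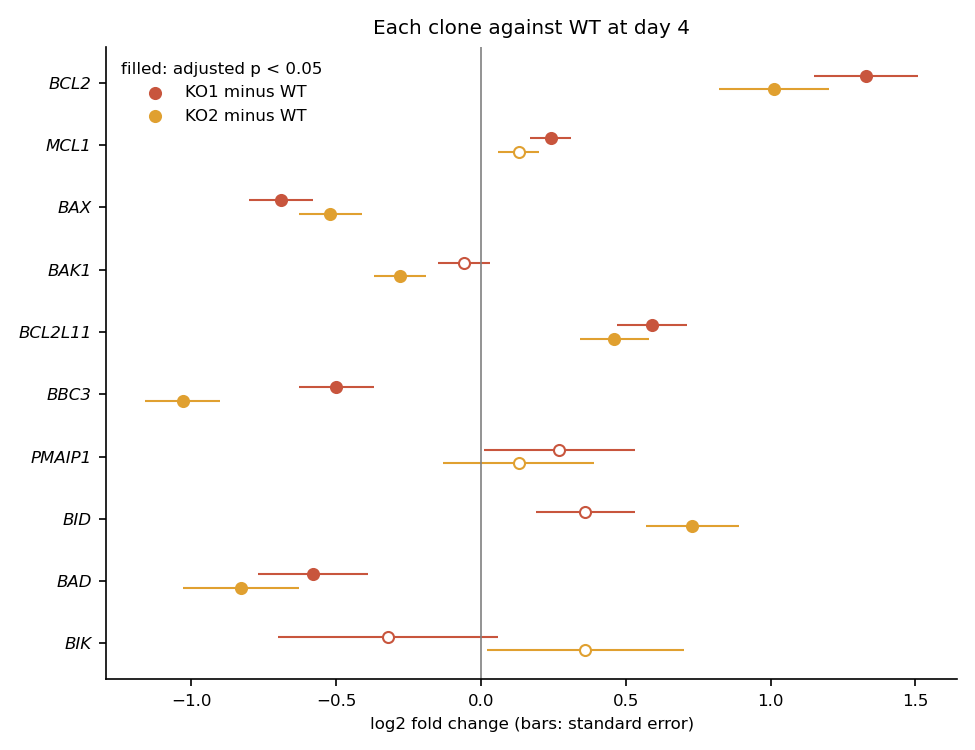
Log2 fold change at day 4 of KO1 minus WT and KO2 minus WT for each member (points), with bars for the standard error; filled points have an adjusted p below 0.05. BCL2 lies farthest to the right, at 1.33 and 1.01, and BBC3 in KO2 farthest to the left, at −1.03.

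BCL2L11, which codes for BIM, a BH3-only protein that binds all prosurvival members and can activate BAX and BAK1, was higher in both knockout lines at day 4. It stood at 34.3 and 30.5 CPM in KO1, 28.6 and 30.7 in KO2, and 21.5 and 21.6 in WT. At day 0 the libraries held 32.4 and 39.3 CPM in KO1, 32.4 and 31.3 in KO2, and 25.7 and 28.6 in WT. Every WT library of day 4 was below every other library, and the knockout lines exceeded WT at both days without overlap. The log2 difference at day 4 was 0.59 in KO1 (SE 0.12, adjusted p = 0.00275) and 0.46 in KO2 (SE 0.12, adjusted p = 0.00868). Group means ran, from high to low, KO1 day 0, KO1 day 4, KO2 day 0, KO2 day 4, WT day 0 and WT day 4. Among neighbours in that order, KO1 day 4 overlapped KO1 day 0 and KO2 day 0. The day 0 differences of 0.40 in KO1 and 0.23 in KO2 were not called (adjusted p = 0.254 and 1). The KO2 call at day 4 was lost without either WT day 4 library or KO2 day 4 replicate 2 (adjusted p up to 0.0847).

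In WT, BCL2L11 fell between day 0 and day 4, with a log2 change of −0.34 (SE 0.12, adjusted p = 0.0287). Its change was −0.15 in KO1 and −0.10 in KO2 (adjusted p = 0.26 and 0.482). The KO1 change was 0.00 without KO1 day 0 replicate 2 and −0.28 without replicate 1. Its size thus turns on which library of that pair is kept. The WT call was lost under DESeq2 and without any 1 of WT day 0 replicate 2, KO2 day 0 replicates 1 and 2, WT day 4 replicates 1 and 2, or KO2 day 4 replicate 1 (adjusted p up to 0.238). The difference of these changes from WT was not called in either line.

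BBC3, which codes for PUMA, a BH3-only protein, separated the lines at day 4. The libraries held 21.1 and 20.8 CPM in KO1, 13.5 and 15.5 in KO2, and 27.4 and 31.6 in WT. At day 0 they held 16 and 16 CPM in KO1, 14.6 and 18.1 in KO2, and 19.8 and 17.7 in WT. At day 4 the 3 lines did not overlap, with WT highest and KO2 lowest. By group mean the order was WT day 4, KO1 day 4, WT day 0, KO2 day 0, KO1 day 0 and KO2 day 4. Among neighbours in that order, KO2 day 0 overlapped WT day 0 and KO1 day 0. The log2 difference from WT was −0.50 in KO1 (SE 0.13, adjusted p = 0.0116) and −1.03 in KO2 (SE 0.13, adjusted p = 3.36e-05), and KO2 was below KO1 by a log2 difference of −0.53 (SE 0.13, adjusted p = 0.00835). The KO1 call was lost without WT day 4 replicate 2 or either KO1 day 4 library (adjusted p up to 0.122), and the difference between the knockout lines without KO1 or KO2 day 4 replicate 1 (up to 0.0889).

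With time BBC3 rose in WT by 0.66 on the log2 scale (SE 0.13, adjusted p = 0.000486) and in KO1 by 0.39 (SE 0.13, adjusted p = 0.0158), and changed by −0.17 in KO2 (adjusted p = 0.32). The KO1 rise lost its call under upper-quartile scaling or without either KO1 day 4 library (adjusted p up to 0.0706). The change in KO2 was lower than that in WT by a log2 difference of −0.84 (SE 0.19, adjusted p = 0.00827), lost only without KO2 day 0 replicate 2 among the 18 settings (−0.69, adjusted p = 0.0614). For KO1 that difference was −0.27 (95% interval −0.66 to 0.11). The low BBC3 of KO2 at day 4 came with the low endoderm marker sum of that line, and the part of cell state in it was not tested.

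PMAIP1, which codes for NOXA, a BH3-only protein that binds MCL1, was carried by 1 library. The day 0 libraries had 68.5 and 172 CPM in KO1, 69.7 and 80.5 in KO2, and 71.7 and 82.5 in WT, and the value of 172 CPM is KO1 day 0 replicate 2. At day 4 it stood at 105 and 97.8 CPM in KO1, 89.2 and 95.6 in KO2, and 78 and 90.5 in WT. None of its differences between lines or days was called. The change in KO1 was −0.25 on the log2 scale (SE 0.26, adjusted p = 0.432) with that library and 0.57 without it. Without its partner, replicate 1, the change was −0.76. The day 4 difference of KO1 from WT and the change in KO2 use no KO1 day 0 library. They were 0.27 and 0.30 with all libraries, and 0.25 and 0.30 with either library of that pair left out, where both passed the threshold. The sign of the KO1 change thus turns on which library of that pair is kept.

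BID, a BH3-only protein that caspase-8 cuts to link death receptors to mitochondria, fell in WT and was higher in KO2 than in WT at day 4. At day 4 it stood at 23.7 and 26.3 CPM in KO1, 29.3 and 35.3 in KO2, and 18.2 and 20.8 in WT. At day 0, values were 34.9 and 23.8 CPM in KO1, 34.8 and 33.3 in KO2, and 39.6 and 34 in WT. The WT libraries of day 4 were the lowest of all 12. In WT the log2 change was −0.91 (SE 0.16, adjusted p = 0.000265), called under all 18 settings, against −0.22 in KO1 and −0.07 in KO2 (adjusted p = 0.242 and 0.719). Without KO1 day 0 replicate 2, which had 23.8 CPM, the KO1 change was −0.47 and was called (adjusted p = 0.00206).

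At day 4 BID was higher than in WT by 0.73 in KO2 (SE 0.16, adjusted p = 0.0037) and by 0.36 in KO1 (SE 0.17, adjusted p = 0.148), on the log2 scale. The KO2 call was lost without WT day 4 replicate 1 or KO2 day 4 replicate 2 (adjusted p up to 0.0621). The KO1 difference, which uses no KO1 day 0 library, was 0.35 with either library of that pair left out. It passed the threshold in those fits and in the fit on the compared libraries only. The change in KO2 exceeded that in WT by 0.84 (SE 0.23, adjusted p = 0.0232), a call lost without any 1 of WT day 0 replicate 1, KO2 day 0 replicates 1 and 2, WT day 4 replicate 1 or KO2 day 4 replicate 2 (adjusted p up to 0.121). A microRNA gene, MIR3198-1, overlaps BID in the reference table and held 27 to 58 counts.

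BAD, a BH3-only protein that growth factor signalling holds inactive by phosphorylation, was lower in both knockout lines at day 4. It stood at 10.5 and 10.7 CPM in KO1, 7.06 and 10.7 in KO2, and 16.8 and 15.1 in WT, with no overlap between knockout and WT libraries. At day 0 the 6 libraries lay between 10.6 and 15.7 CPM and the lines overlapped. The log2 difference at day 4 was −0.58 in KO1 (SE 0.19, adjusted p = 0.0455) and −0.83 in KO2 (SE 0.20, adjusted p = 0.00538). The KO1 call was lost under DESeq2 or without any 1 library of WT or of KO1 day 4 (adjusted p up to 0.207), and the KO2 call without KO2 day 4 replicate 1 (0.0744). With time BAD fell in KO2 (log2 −0.55, adjusted p = 0.0368), with 7.06 and 10.7 CPM at day 4 and 10.6 and 15.7 CPM at day 0, so the days overlapped. Without KO2 day 0 replicate 2 the change was −0.23 (adjusted p = 0.458), and the call was also lost without either WT library of day 4, KO1 day 4 replicate 1 or KO2 day 4 replicate 1. BAD overlaps GPR137, which held 249 to 543 counts against 88 to 298 for BAD, and the strand setting of the counting is not given in the sources used here, so reads of the pair may not have been kept apart.

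BIK, a BH3-only protein of the endoplasmic reticulum, was near the detection limit, with 8 to 36 counts per library. Its levels ran from 0.69 to 0.963 CPM in KO1, 1.34 to 1.36 CPM in KO2 and 0.838 to 1.3 CPM in WT at day 4. At day 0 they ran from 1.54 to 1.6 CPM in KO1, 1.12 to 1.27 CPM in KO2 and 0.918 to 1.36 CPM in WT. BIK fell with time in KO1 (log2 −0.90, SE 0.33, adjusted p = 0.0309), a call lost under DESeq2 (0.204), with only the KO1 libraries, or without KO1 day 0 replicate 2 or either KO1 day 4 library. No difference from WT was detectable at this depth.

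**Figure D3:**
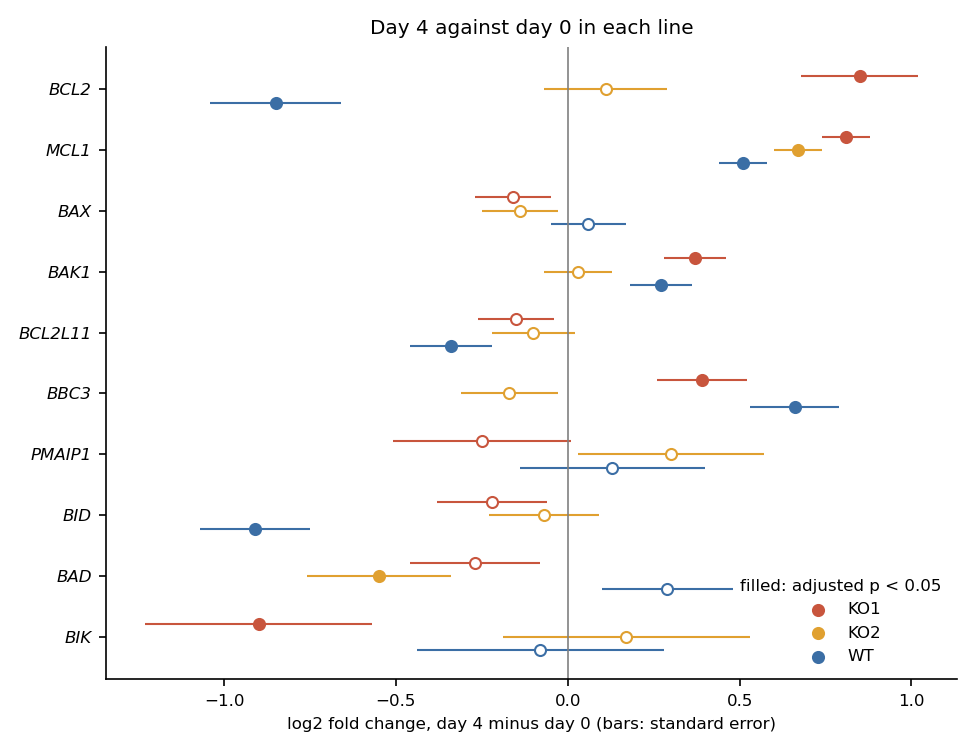
Log2 fold change of day 4 minus day 0 in KO1, KO2 and WT for each member (points), with bars for the standard error; filled points have an adjusted p below 0.05. MCL1 is to the right of 0 in all 3 lines, and BCL2 is at 0.85 in KO1, 0.11 in KO2 and −0.85 in WT.

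Counted over the family, members were called between the days in each line. In KO1, 4 rose, beside 29.1% of all features, and 1 fell, beside 29.3%: BCL2, MCL1, BAK1 and BBC3 rose and BIK fell. In KO2, 1 rose, beside 25.0%, and 1 fell, beside 25.7%, namely MCL1 and BAD. In WT, 3 rose, beside 24.3%, and 3 fell, beside 25.4%: MCL1, BAK1 and BBC3 rose, and BCL2, BCL2L11 and BID fell. Without KO1 day 0 replicate 2, 7 members were called in KO1, 4 of which were among the 5, beside 57.6% of all features called either way in that fit. The difference of the changes from WT was called for 1 member in KO1 (BCL2), where 9.80% of all features were called either way, and for 3 members in KO2 (BCL2, BBC3 and BID), where 13.9% were. Without KO2 day 0 replicate 2 that count for KO2 was 0, beside 7.51% of all features, and without KO1 day 0 replicate 2 that for KO1 was 4, beside 15.4%.

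The knockout lines differed from each other at day 4 in 1 member, BBC3, against 25.1% of all features called in either direction. The other 9 had log2 differences between −0.31 for BCL2 and 0.68 for BIK, with 95% intervals that include 0 for 7 of them, but not for BAK1 (−0.42 to −0.02) or BID (0.03 to 0.71). With the 3-line fit replaced by one on the compared libraries only, 4 members were called, beside 43.0% of all features in that fit.

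At day 0 no member was called by edgeR in any of the 4 comparisons. At an unadjusted p below 0.05 there were 5 members for KO1 against WT, beside 9.75% of all features, 1 for KO2 against WT, beside 4.71%, 2 for the mean of the knockout lines against WT, beside 7.45%, and 2 for KO2 against KO1, beside 3.86%. DESeq2 called 1 member for KO1, beside 0.305% of all features, and 1 for the mean, beside 0.376%. It called 0 for KO2, beside 0.164%, and 0 for KO2 against KO1, beside 0.00708%. Few features of any kind were called by edgeR at day 0: 0.238% for KO1, 0.143% for KO2, 0.280% for the mean and 0.0119% for KO2 against KO1. These counts turn on the KO1 pair: with replicate 2 as the only KO1 library of day 0, 4 members were called in KO1 against WT, beside 21.9% of all features, and with replicate 1 as the only one, 0 were, beside 0.244%. The 4 were PMAIP1 at 1.15, BAX at −0.67, BCL2L11 at 0.53 and BID at −0.62 on the log2 scale.

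BCL2 and BAX went opposite ways, so their ratio within a library, a quantity chosen after the values were seen, widened the gap. At day 4 there were 11 and 8.98 BCL2 reads per 100 BAX reads in KO1, 6.67 and 7.69 in KO2, and 2.87 and 2.1 in WT. At day 0 the values were 4.37 and 5.63 in KO1, 6.29 and 5.67 in KO2, and 4.57 and 4.71 in WT. The knockout lines lay above WT at day 4 in every library, and KO1 and WT overlapped at day 0. The ratio is of reads and not of transcripts, since lengths were not applied, and no test was made on it.

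**Figure D4:**
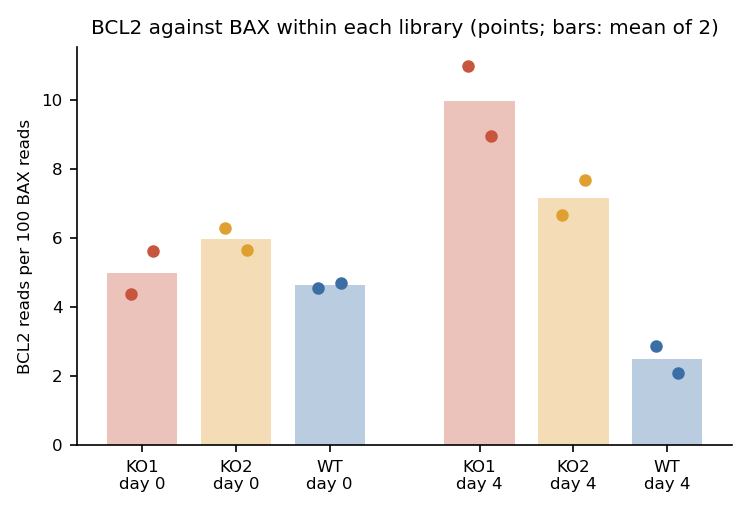
BCL2 reads per 100 BAX reads in each library (points) with the mean of 2 libraries (bars, axis from 0) for KO1, KO2 and WT at day 0 and day 4. At day 4 the KO1 and KO2 points lie between 6.67 and 11, and the WT points at 2.1 and 2.87.

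Of 13 other relatives of the family, 11 were tested, and BCL2L10 and BCL2L15, with at most 2 and 10 counts in a library, were not. For the mean of the knockout lines against WT at day 4, 2 of the 11 were higher, beside 11.3% of all features, and 3 lower, beside 12.6%, with a median log2 difference of −0.03, against 0.01 over all features. BCL2L1, which codes for the prosurvival BCL-XL, was at 135 ± 9.2 CPM in KO1, 141 ± 0.696 CPM in KO2 and 110 ± 4.58 CPM in WT at day 4 (SD, n = 2 each). It was 0.29 and 0.36 higher than WT in KO1 and KO2 (adjusted p = 0.0221 and 0.00457). At day 0 it already stood at 129 to 140 CPM in KO1, 156 to 160 CPM in KO2 and 113 to 127 CPM in WT. The day 0 difference for the mean of the knockout lines was 0.28 (SE 0.07, adjusted p = 0.188) and was not called. At day 4 that difference was 0.33. BOK, a BAX-like effector, was higher in KO1 (0.70, adjusted p = 0.000311) and differed by 0.11 in KO2 (adjusted p = 0.481). The BH3-only gene BMF and the hypoxia-responsive BNIP3 were lower in KO2, by log2 differences of −1.09 and −1.26 (adjusted p = 0.000574 and 0.00164), and differed by −0.18 and −0.53 in KO1 (adjusted p = 0.533 and 0.141). In WT between the days, BNIP3 rose by 1.17 and BNIP3L fell by 0.71 on the log2 scale, and the other 9 were not called. Over all features, 24.3% were called higher and 25.4% lower in that comparison.

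Among 19 genes for caspases, apoptosome parts and related proteins, 2 were higher and 3 lower for the mean of the knockout lines at day 4 (median −0.13). These counts are near the 11.3% and 12.6% of all features. By line, 2 were higher and 3 lower in KO1, beside 10.5% and 9.42% of all features. In KO2, 3 were higher and 4 lower, beside 13.5% and 14.5%. CYCS, which codes for cytochrome c, stood at 172 ± 3.67 CPM in KO1, 176 ± 12.4 CPM in KO2 and 109 ± 0.218 CPM in WT (SD, n = 2 each), and was called higher in each line. CASP10 was lower in KO2 (log2 −1.55, adjusted p = 2.53e-05) and differed by −0.19 in KO1 (adjusted p = 0.459). Between the days in WT, 8 of these 19 rose, beside 24.3% of all features, and 4 fell, beside 25.4%. Among them APAF1 rose by 0.78, and AIFM1 fell by 0.55 and DFFB by 0.47 on the log2 scale.

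The death receptor pathway, which reaches the family through BID, had 0 of 10 tested genes higher and 6 lower for the mean at day 4 (median −0.38), beside 11.3% and 12.6% of all features. The lines differed in their counts: 3 were lower and 0 higher in KO1, beside 9.42% and 10.5%, and 6 were lower and 1 higher in KO2, beside 14.5% and 13.5%. FAS, a death receptor, stood at 1.24 ± 0.289 CPM in KO1, 2.05 ± 0.727 CPM in KO2 and 4.59 ± 0.886 CPM in WT (SD, n = 2 each), with log2 differences of −1.87 and −1.19 (adjusted p = 0.000364 and 0.00319). CFLAR, an inhibitor of caspase-8, was lower in KO2 (−2.88, adjusted p = 0.000115) and differed by −0.25 in KO1 (adjusted p = 0.62), so its mean difference of −1.56 is KO2's. TRADD and TNFRSF10D were also called lower in KO2 (log2 −2.38 and −0.39) and not in KO1 (−0.36 and −0.21), and RIPK1 was called higher in KO2 (0.27, adjusted p = 0.0219) and not in KO1 (0.11). Those 3 were named after their values were seen. At day 4 TRADD stood at 0.604 to 0.894 CPM in KO1, 0.16 to 0.201 CPM in KO2 and 0.709 to 1.3 CPM in WT. Its KO2 values are at or below 3 counts. CFLAR stood at 2.68 to 3.23 CPM in KO1, 0.321 to 0.602 CPM in KO2 and 2.59 to 4.38 CPM in WT. The differences of both genes in KO2 thus rest on few counts. KO2 was below KO1 in CFLAR (log2 −2.63, adjusted p = 0.000339) and TRADD (−2.01, adjusted p = 0.0302), while the difference between the lines was not called for TNFRSF10D (−0.17, adjusted p = 0.245) or RIPK1 (0.16, adjusted p = 0.171).

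Of 19 other direct regulators of the members, 5 were higher, beside 11.3% of all features, and 1 lower, beside 12.6%, for the mean at day 4 (median 0.13). MYC, a factor that binds E-boxes, stood at 166 ± 8.39 CPM in KO1, 182 ± 10.1 CPM in KO2 and 103 ± 13.7 CPM in WT (SD, n = 2 each). PIM1, a kinase that phosphorylates BAD, was higher by 0.43 in KO1 and 0.46 in KO2 on the log2 scale (adjusted p = 0.00287 and 0.00107), and AKT1, another such kinase, was lower in KO2 (−0.38, adjusted p = 0.00902) and differed by −0.16 in KO1 (adjusted p = 0.276). USP9X, a deubiquitinase that stabilises MCL1, fell in WT between the days by 1.00 on the log2 scale, and DDIT3, a stress-induced regulator of BCL2 and BCL2L11, rose by 2.38.

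**Figure D5:**
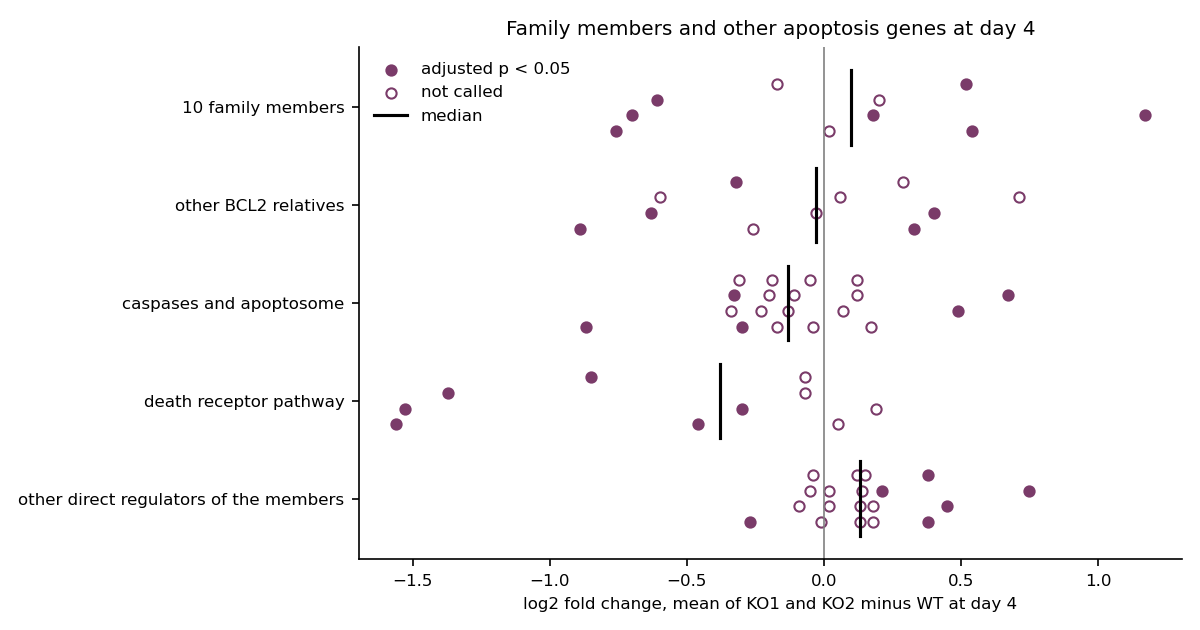
Log2 fold change at day 4 for the mean of KO1 and KO2 minus WT of each tested gene in the family and in 4 lists (points; filled where the adjusted p is below 0.05), with a vertical bar for each list's median; points are spread vertically only to be seen. The 10 members lie on both sides of 0 with a median of 0.10, and the death receptor list has 6 of 10 filled points, all to the left of 0.

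Over the 12 libraries, the gene whose level tracked BCL2 most closely among 11772 with at least 5 mean CPM was RLIM (Pearson r = 0.91 on log2 CPM), followed by BLMH (0.908) and SPSB4 (0.901). At day 4 RLIM averaged 269 ± 13.2 CPM in KO1, 257 ± 0.676 CPM in KO2 and 214 ± 3.02 CPM in WT (SD, n = 2 each). For BBC3, the member with the next widest range of group means, they were FUT8 (0.946), PRKCDBP (0.939) and PSMD9 (0.936). FUT8 stood at 36.4 ± 0.62 CPM in KO1, 24.8 ± 0.175 CPM in KO2 and 47.1 ± 0.818 CPM in WT at day 4 (SD, n = 2 each). The libraries share lines and days, so these values describe likeness over 6 groups and carry no p.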

How the data were processed

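The authors deposited read counts per feature for 12 poly(A) RNA-seq libraries. The submitters' processing notes name Bowtie2 2.1.0, HTSeq 0.6.1 and the hg19 genome. Libraries were made with a stranded kit, per the labels' protocols. Strand setting, annotation and mapping quality minimum: not given in the sources used here. Rows that name no gene stayed out of all totals. Reads outside features came to 29.2% to 30.5% of a library, and reads below the mapping quality minimum to 19.3% to 22.2%. Ambiguous reads came to 1.17% to 1.41% and unaligned reads to 0.115% to 0.171%.

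Of 54435 features, 28251 had counts and 16792 passed edgeR's filterByExpr. Counts were scaled with TMM and fitted with edgeR's quasi-likelihood model in 6 groups of 2 libraries, which left 6 residual degrees of freedom. Its p values were adjusted by Benjamini-Hochberg over all 16792 and called below 0.05. A standard error is |log2 fold change| over √F. CPM uses the TMM-scaled totals, with a prior count of 2 only for log2 CPM in the likeness ranking. The floor of 3 counts and the CPM values cover counting error only.

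The 10 members are all named. In each list the 2 largest called changes each way are named, for the day change in WT and for the mean difference at day 4, and any tested relative may be. Some genes that this rule names, and a further list of genes, are not reported here. The members and the lists were chosen with earlier results of these data known. Promoters come from RefSeq (GRCh38.p14), with no hg19 coordinates, and gene overlaps from the same assembly's gene table, in which all 10 members and 14260 of the tested features were found by name. The 8 ChIP-seq samples are not analysed here. Alternatives tried were RLE and upper-quartile scaling, no filter, the replicate number as a block, a fit on the compared libraries only, the 4 knockout libraries of a day as 1 group, DESeq2, and each library left out. The code was tested on simulated data. Versions were edgeR 4.0.16 and DESeq2 1.42.0 under R 4.3.3, and matplotlib 3.10.9 under Python 3.11.15.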

Additional observations from a re-analysis of the deposited data

Results flagged for a closer look

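For 3 members the change between day 0 and day 4 differed between a knockout line and WT by a test of the difference itself. BCL2 changed by 1.70 more on the log2 scale in KO1 than in WT (adjusted p = 0.000802) and by 0.96 more in KO2 than in WT (adjusted p = 0.023). The BBC3 change in KO2 differed from that in WT by −0.84 (adjusted p = 0.00827), and the BID change in KO2 differed from that in WT by 0.84 (adjusted p = 0.0232). The KO1 value for BCL2 was called under every alternative run, and the 3 KO2 values each lost their call without at least 1 library, KO2 day 0 replicate 2 in each case. KO2 at day 4 also had the low endoderm marker sum, and its part in these 3 values was not tested. KO1, where BCL2 differed by 1.70, had an endoderm marker sum of 4871 to 4949 CPM at day 4, against 4439 to 4833 CPM in WT. The part of cell state in that KO1 value was not tested either. Groups of 2 libraries are too small for a check of single outlying samples.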

How the results depend on the processing

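Of 2360 member values under the alternatives, 2212 kept their direction and their side of the threshold or were not called on either side, 37 of these with a change of sign, 84 lost their call, 62 gained one and 2 reversed. Both reversals are PMAIP1 without KO1 day 0 replicate 2, where its change in KO1 was 0.57 (−0.25 with it) and the difference of that change from WT was 0.43 (−0.37 with it). Without KO1 day 0 replicate 1 the same values were −0.76 and −0.90, so 1 library of the KO1 day 0 pair sets their sign. The cause was not tested. Leaving out 1 library at a time gave 3 to 7 called members for the change in KO1 (5 with all libraries) and 1 to 3 in KO2 (2). At day 4 it gave 3 to 8 for KO1 against WT (6), 4 to 7 for KO2 against WT (7), 4 to 8 for the mean (7) and 0 to 3 for KO2 against KO1 (1). At day 0 it gave 0 to 4 for KO1, 0 to 1 for KO2, 0 to 4 for the mean and 0 to 4 for KO2 against KO1 (0 in each). For the difference of changes from WT it gave 1 to 4 in KO1 (1) and 0 to 4 in KO2 (3), and for the change in WT 4 to 6 (6). With 1 library left in a group, that library is assumed to vary like the other groups. With no filter, 2 members were called for KO2 against KO1 at day 4, beside 15.8% of all features. At day 0 it was 2 for KO1 against WT, beside 1.36%, and 1 for the mean, beside 0.821%. Another 1 was called for KO2 against KO1 at day 0, beside 0.251%, and 2 for the difference of changes in KO1, beside 7.52%. With only the compared libraries, 4 were called for the change in KO2, beside 64.6% of all features, and 4 for KO2 against KO1 at day 4, beside 43.0%. DESeq2 called 1 for KO1 against WT at day 0, beside 0.305% of all features, and 1 for the mean at day 0, beside 0.376%.

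No strong shift shared by replicate number was seen: over 15 pairs of groups the correlation of replicate differences ran from −0.04 to 0.15, with 1 above 0.1. These values cannot show whether replicates of the same number shared a culture or a batch. With the replicate number as a block, the BAD difference of changes in KO2 was called (−0.85, adjusted p = 0.0319), which made 4 members instead of 3, and no other member call changed. The features called moved too: leaving out 1 library gave 1353 to 5228 for KO1 against WT at day 4 (3337 with all), 2492 to 6596 for KO2 (4697), 1751 to 6048 for the mean (4011), 2146 to 6120 for KO2 against KO1 (4214), 607 to 4513 for the difference of changes in KO1 (1645) and 1210 to 4245 in KO2 (2329). At day 0 it gave 9 to 3787 for KO1 (40), 2 to 120 for KO2 (24), 12 to 1657 for the mean (47) and 0 to 2746 for KO2 against KO1 (2). With the 4 knockout libraries as 1 group, 1418 features and 5 members were called for the mean at day 4. BIK, at 8 to 36 counts, and BCL2, at 51 to 125, are the members that depth limits most.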
